A study of Mus musculus with 6 samples.

Results

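The genes described here are the 10 genes Pcyt2, Etnk1, Etnk2, Chka, Chkb, Pcyt1a, Pemt, Pisd, Cept1 and Chpt1, which encode the enzymes that make phosphatidylethanolamine and phosphatidylcholine, and all 10 were among the 16623 genes measured. Pcyt2 was chosen because its level differed between WT and SIRT7 KO mice in these data and because it lies next to Sirt7 in the genome, so its difference between the genotypes is given as a description with no test. The other 9 genes were chosen by pathway. Cells came from the livers of 3 WT and 3 SIRT7 KO mice, all aged 5 to 6 months, with no further treatment named for these animals. SIRT7 is a deacetylase of histones, and the KO mice lack it in the whole animal rather than in one cell type; the mouse strain, sex and the allele are not given in the sources used here. Each liver was perfused with collagenase and hepatocytes were mixed with nonparenchymal cells in equal numbers for one library per mouse, so the share of a cell class in a library does not give its share in the liver.

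Phosphatidylethanolamine and phosphatidylcholine are the main phospholipids of cell membranes, and in the liver they also coat lipoproteins and enter bile. Both are made by parallel chains of steps known as the Kennedy pathway, in which ethanolamine or choline is first phosphorylated, then activated with CTP, and last joined to diacylglycerol. The step that uses CTP is regarded as the slow one, and it is carried out by Pcyt2 for ethanolamine and mainly by Pcyt1a for choline. Hepatocytes are known for a further route, in which Pemt methylates phosphatidylethanolamine to phosphatidylcholine, and mitochondria make phosphatidylethanolamine from phosphatidylserine with Pisd.

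Between 552 and 5609 cells per mouse, 11610 in all, carried 2511947 to 11069411 unique molecular identifiers (UMIs, which mark single RNA molecules). Levels are given in CP10K, the UMIs of a gene per 10000 UMIs of a cell, averaged over the cells of a class in each mouse. The table names no cell types, so cells were clustered and each cluster was named after the marker genes it carried, with "-like" added. Hepatocyte-like cells made up 9.14% to 64.4% of a library and fell into 2 clusters. Hepatocyte cluster 1, with 1763 cells, was led by Sult2a5, Gsta4 and Fabp1, and hepatocyte cluster 2, with 1193 cells, by Gm12909, Slc22a30 and Igfbp1. In both clusters UMIs of all 14 hepatocyte markers were present in both genotypes. Cluster 1 held 55% to 80.1% of the hepatocyte-like cells of the WT mice but 56.4%, 81.3% and 19.3% of those of SIRT7 KO replicates 1, 2 and 3, so values over all hepatocyte-like cells also depend on this mix. The dendritic-like cluster scored nearly as high for monocyte markers. Of the cell barcodes, 13 occurred in 2 or more mice. Sirt7 itself had 0.718, 0.512 and 0.546 CP10K over all cells of the WT mice and 0.100, 0.0814 and 0.139 CP10K in the SIRT7 KO mice. Every KO library thus lay below every WT library, and some Sirt7 UMIs remained in each.

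Pcyt2 RNA was almost gone from the SIRT7 KO libraries. Over all cells, 2613 Pcyt2 UMIs were counted in 1103 of the 3270 WT cells and 152 UMIs in 145 of the 8340 KO cells, or 3.13 (95% exact Poisson interval 3.01 to 3.25) against 0.0771 (0.0654 to 0.0904) per 10000 UMIs, intervals that cover counting error only. These pooled levels also depend on the mix of cells, since Pcyt2 was highest in hepatocyte-like cells. Those made up 1413 of the 3270 WT cells and 1543 of the 8340 KO cells. The fullest WT cell held 18 Pcyt2 UMIs and the fullest KO cell 2. In hepatocyte cluster 2, where Pcyt2 was highest, the WT mice had 14.2, 15.7 and 14.5 CP10K and the SIRT7 KO mice 0.547, 0.384 and 0.174 CP10K. These are means of 14.8 ± 0.796 and 0.368 ± 0.187 CP10K (SD, n = 3 each), and the KO level was 2.49% of the WT level. In hepatocyte cluster 1 the WT mice had 2.75, 3.17 and 4.14 CP10K and the KO mice 0.0291, 0.0718 and 0 CP10K, the last with no UMI in 65 cells. The KO mean there was 1.002% of the WT mean of 3.35 ± 0.716 CP10K (SD, n = 3). Over all hepatocyte-like cells the levels were 7.33, 5.67 and 8.79 CP10K in WT and 0.255, 0.130 and 0.140 CP10K in KO mice. In all 3 of these groupings each KO mouse lay far below each WT mouse. The share of all tested genes that differed between the genotypes at an adjusted p under 0.05 (limma, described with the other genes) was 0.465% in cluster 1, 0.243% in cluster 2 and 0.101% in all hepatocyte-like cells. Since Pcyt2 was selected on this contrast, nothing is read from its place among them.

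**Figure D1:**
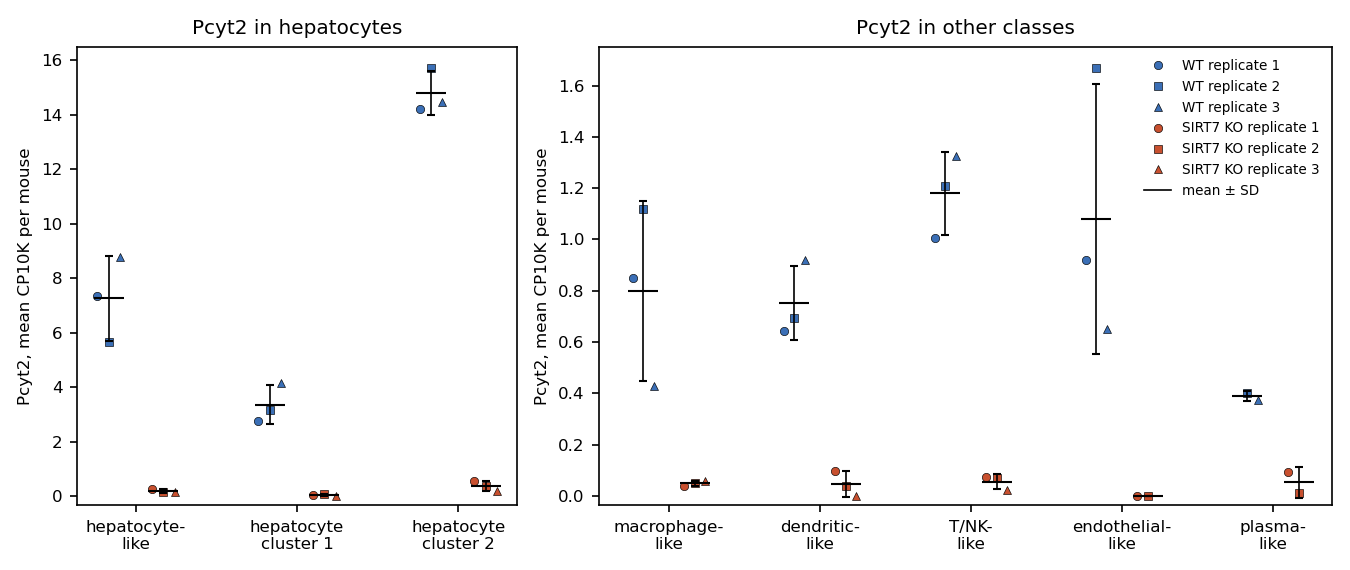
Pcyt2 level (mean CP10K per mouse, linear axes with a separate scale for each panel) in hepatocyte-like cells and their 2 clusters (left) and in the other compared classes (right). Points are mice with at least 20 cells of the class, and bars give the mean ± SD; the SIRT7 KO mice sit at or near 0 in every class while the WT mice reach 14.2 to 15.7 in hepatocyte cluster 2.

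The share of cells in which Pcyt2 was seen followed the same pattern. Because cells differ in depth, each cell was also thinned to 1000 UMIs, which left out 458 WT and 1293 KO cells with fewer. After thinning, 68.3% to 76.9% of the cluster 2 cells of the WT mice were expected to show a Pcyt2 UMI, and 1.72% to 4.85% of those of the KO mice. With all UMIs these shares were 68.9% to 93.1% and 3.77% to 7.71%. In cluster 1 the thinned shares were 22.8% to 41.8% in WT and 0% to 0.971% in KO mice. T/NK-like cells of the WT mice, at a median of 1077 to 2695 UMIs per cell, showed Pcyt2 in 9.48% to 11.8% of cells after thinning.

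Pcyt2 was lower in the SIRT7 KO mice in each of the other compared classes too, from much lower WT levels. T/NK-like cells had 1.01, 1.21 and 1.33 CP10K in WT and 0.0757, 0.0692 and 0.0227 CP10K in KO mice. Macrophage-like cells had 0.850, 1.12 and 0.428 CP10K against 0.0390, 0.0515 and 0.0585 CP10K, and dendritic-like cells 0.644, 0.696 and 0.918 CP10K against 0.0985, 0.0405 and 0 CP10K. None of these KO mice overlapped with a WT mouse of the same class. In endothelial-like cells the WT mice had 0.921, 1.67 and 0.650 CP10K, and no UMI was found in 256 KO cells. With 3 UMIs put in place of 0 for the KO cells, the summed WT level of 1.02 UMIs per 10000 was 10.9-fold higher, which is not a lower bound. The 95% exact Poisson intervals were 0.764 to 1.34 in WT and 0 to 0.115 per 10000 in KO cells. In plasma-like cells, with 2 mice per genotype, 0.403 and 0.375 CP10K in WT compared with 0.0953 and 0.0115 CP10K in KO mice. The share of all genes past the threshold was 0.12% for T/NK-like cells, 0.31% for endothelial-like cells and 0.201% for macrophage-like cells, and it was 0.0308% and 0.0781% for the dendritic-like and plasma-like classes.

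Outside hepatocytes the WT levels of Pcyt2 were set beside those of hepatocyte marker RNA in the same cells. For each WT mouse, the level of each gene in a class was divided by its level in the hepatocyte-like cells of the same mouse, and the same was done for the 14 hepatocyte marker genes, such as Alb. In macrophage-like cells Pcyt2 stood at 4.86% to 19.8% of its hepatocyte level and the median hepatocyte marker at 10.6% to 20.6%. In T/NK-like cells these values were 13.7% to 21.3% and 16.97% to 24.0%, in dendritic-like cells 8.77% to 12.3% and 10.8% to 14.9%, and in endothelial-like cells 7.39% to 29.4% and 18.8% to 26.7%. In none of these 4 classes did Pcyt2 exceed the highest of the 14 markers in any of the 3 WT mice. In the KO mice, whose Pcyt2 level in hepatocyte-like cells rests on 5 to 37 UMIs, it exceeded the highest marker in 2 of 3 mice in macrophage-like cells, in 2 of 3 in dendritic-like cells and in 1 of 3 in T/NK-like cells. It stood there at 15.3% to 41.7%, 0% to 38.7% and 16.2% to 53.2% of the hepatocyte level. How much of the Pcyt2 RNA came from the cells themselves was not tested. Etnk1, Cept1 and Pisd lay higher. Etnk1, an ethanolamine kinase, reached 75.5% to 120% of its hepatocyte level in macrophage-like and 140% to 178% in T/NK-like cells. Cept1, which joins the head group to diacylglycerol in both branches, reached 225% to 297% in macrophage-like cells. Pisd reached 40.4% to 380% there. All 3 genes lay above every hepatocyte marker in each WT mouse in macrophage-like, dendritic-like and T/NK-like cells. For Pisd this rests on 4 to 14 UMIs per WT mouse in these classes and 8 to 45 in hepatocyte-like cells. Pcyt1a lay above every marker in 3 of 3 WT mice in macrophage-like and dendritic-like cells and in 2 of 3 in T/NK-like cells.

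**Figure D2:**
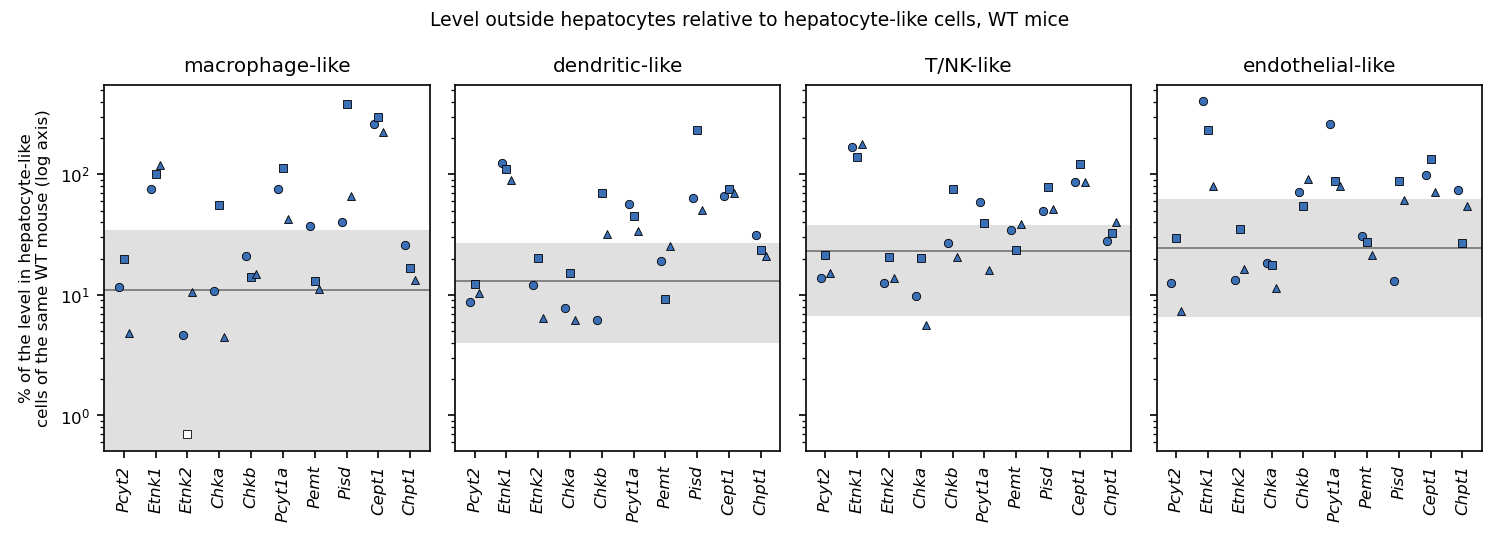
Level of the 10 genes in 4 classes as a percent of the level in hepatocyte-like cells of the same WT mouse (log axis; symbols are the 3 WT mice, and the open symbol marks a level of 0, drawn at the foot of the axis). The grey band spans the 14 hepatocyte marker genes over the 3 mice and the line is the middle mouse's median marker; Pcyt2, Etnk2 and most Chka values lie within or below the band, while Etnk1 and Cept1 lie above it.

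The genes around Pcyt2 were examined because Pcyt2 and Sirt7 are neighbours. In the mouse genome GRCm38 with the GENCODE vM21 annotation, Pcyt2 lies on the minus strand of chromosome 11 from 120610087 to 120617936 and Sirt7 on the same strand from 120618372 to 120625240, with 435 bases between them. Mafg, on the far side of Sirt7 from 120625117 to 120633600, overlaps Sirt7 by 124 bases, so reads from the overlap could not be placed. Anapc11, a subunit of the anaphase promoting complex, and Npb, a neuropeptide gene, lie beyond the other end of Pcyt2, from 120598421 to 120608198 and from 120608477 to 120609093. In hepatocyte cluster 2, Sirt7 had 1.41, 1.24 and 1.66 CP10K in WT and 0.335, 0.362 and 0.186 CP10K in SIRT7 KO mice. Mafg, a small Maf transcription factor, had 2.31, 1.77 and 1.19 CP10K in WT and 3.40, 2.85 and 2.03 CP10K in KO mice, and these groups overlapped (log2 difference KO minus WT 0.66 ± 0.385 SE, limma adjusted p = 0.582). Anapc11 had 0.358, 0.240 and 0.197 CP10K against 0.436, 0.726 and 0.238 CP10K, again with overlap (log2 difference 0.63 ± 0.528 SE, limma adjusted p = 0.712). Npb was close to absent, at 0 to 0.0297 CP10K in these mice.

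**Figure D3:**
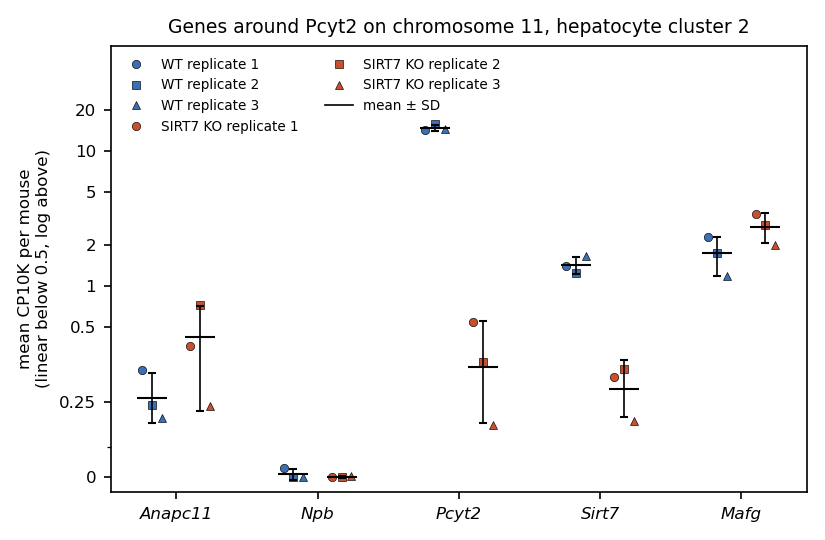
Level of Pcyt2, Sirt7 and the next genes on either side in hepatocyte cluster 2 (mean CP10K per mouse, axis linear below 0.5 and log above; bars are mean ± SD, n = 3 per genotype). Pcyt2 and Sirt7 are lower in all 3 SIRT7 KO mice than in any WT mouse, whereas Anapc11 and Mafg overlap.

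For the other 9 genes the genotypes were compared with limma on log2(mean CP10K + 0.05) per mouse, with p-values adjusted by the method of Benjamini and Hochberg over all genes of a class. None of the 9 passed the threshold of 0.05 in any of the 8 groupings, which made 71 tests, and 11 of these had an unadjusted p under 0.05, 6 higher and 5 lower in the KO mice. These are 15.5% of the 71 tests, beside 8.29% of the tests of all genes in the same groupings (6.08% to 10.6% per grouping), and the hepatocyte-like cells enter both as a whole and by cluster. limma with voom weights on summed UMIs called 1, namely Cept1 in cluster 1. That setting called 517 genes in cluster 1, against 40 of the 8597 tested there on mean CP10K. The median log2 difference of the 9 genes was -0.44 in cluster 1 and -0.16 in cluster 2, where the median over all genes was -0.08 and 0.20. With 3 mice per genotype these comparisons do not show that the levels were alike. Where the mice of the genotypes did not overlap for a gene named below, this is a description only. The share of all genes without overlap was not counted.

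Of the kinases that start both branches, Chka stood furthest apart between the hepatocyte clusters. Chka, on chromosome 19 from 3851773 to 3894369, encodes choline kinase alpha, which also accepts ethanolamine. In the WT mice its level in cluster 2 was 19.96 to 38.7 times that in cluster 1, against 3.49 to 5.18 times for Pcyt2, 3.02 to 12.4 times for Chkb, 2.59 to 5.41 times for Etnk2 and 1.93 to 3.35 times for Etnk1, and since clusters were formed from these same cells this ratio is a description. The 38.7 of Chka and the 3.02 of Chkb come from WT replicate 3, whose cluster 1 held 3 UMIs of Chka and 1 of Chkb. In cluster 2 Chka had 7.03, 5.74 and 10.0 CP10K in WT and 19.8, 23.1 and 9.42 CP10K in KO mice. The mean in KO mice was 2.30-fold that in WT mice, but KO replicate 3 fell within the WT range (log2 difference 1.13 ± 0.396 SE, limma adjusted p = 0.320). Without KO replicate 3 the difference was 1.53 and passed the threshold (limma adjusted p = 0.00992). That fit called 176 genes in cluster 2, against 25 of the 10270 tested with all mice. In cluster 1 Chka had 0.352, 0.252 and 0.259 CP10K against 0.953, 0.791 and 0.316 CP10K, with KO replicate 3 again the nearest to the WT mice (log2 difference 1.01 ± 0.459 SE, limma adjusted p = 0.442). Over all hepatocyte-like cells the log2 difference of Chka was 1.38 ± 0.489 SE (limma adjusted p = 0.586).

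Etnk1, on chromosome 6 from 143167221 to 143232307, showed a like pattern in cluster 2, with 0.769, 1.52 and 1.10 CP10K in WT and 2.43, 3.03 and 1.80 CP10K in KO mice. Each KO mouse lay above each WT mouse, by a log2 difference of 1.08 ± 0.390 SE that did not pass after adjustment (limma adjusted p = 0.330). In cluster 1 it was 0.251, 0.453 and 0.571 CP10K against 0.267, 0.670 and 0.0868 CP10K, with overlap (log2 difference -0.53, limma adjusted p = 0.748). Etnk2, the ethanolamine kinase more typical of liver, on chromosome 1 from 133363572 to 133380336, had 6.73, 2.82 and 5.65 CP10K in WT and 7.48, 8.42 and 3.47 CP10K in KO mice in cluster 2. The groups overlapped there and in cluster 1, where levels were 0.893 to 2.13 CP10K (log2 differences 0.34 and -0.11, limma adjusted p = 0.813 and 0.937). Chkb, which encodes choline kinase beta, on chromosome 15 from 89426360 to 89429908, spread from 0.110 to 1.73 CP10K in cluster 2, with KO replicate 2 the lowest on 2 UMIs (log2 difference -0.73 ± 0.881 SE, limma adjusted p = 0.819). In cluster 1 it had 0.140, 0.193 and 0.216 CP10K in WT and 0.110, 0.0833 and 0.119 CP10K in KO mice, without overlap but on 1 to 13 UMIs per mouse (log2 difference -0.59, limma adjusted p = 0.718).

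**Figure D4:**
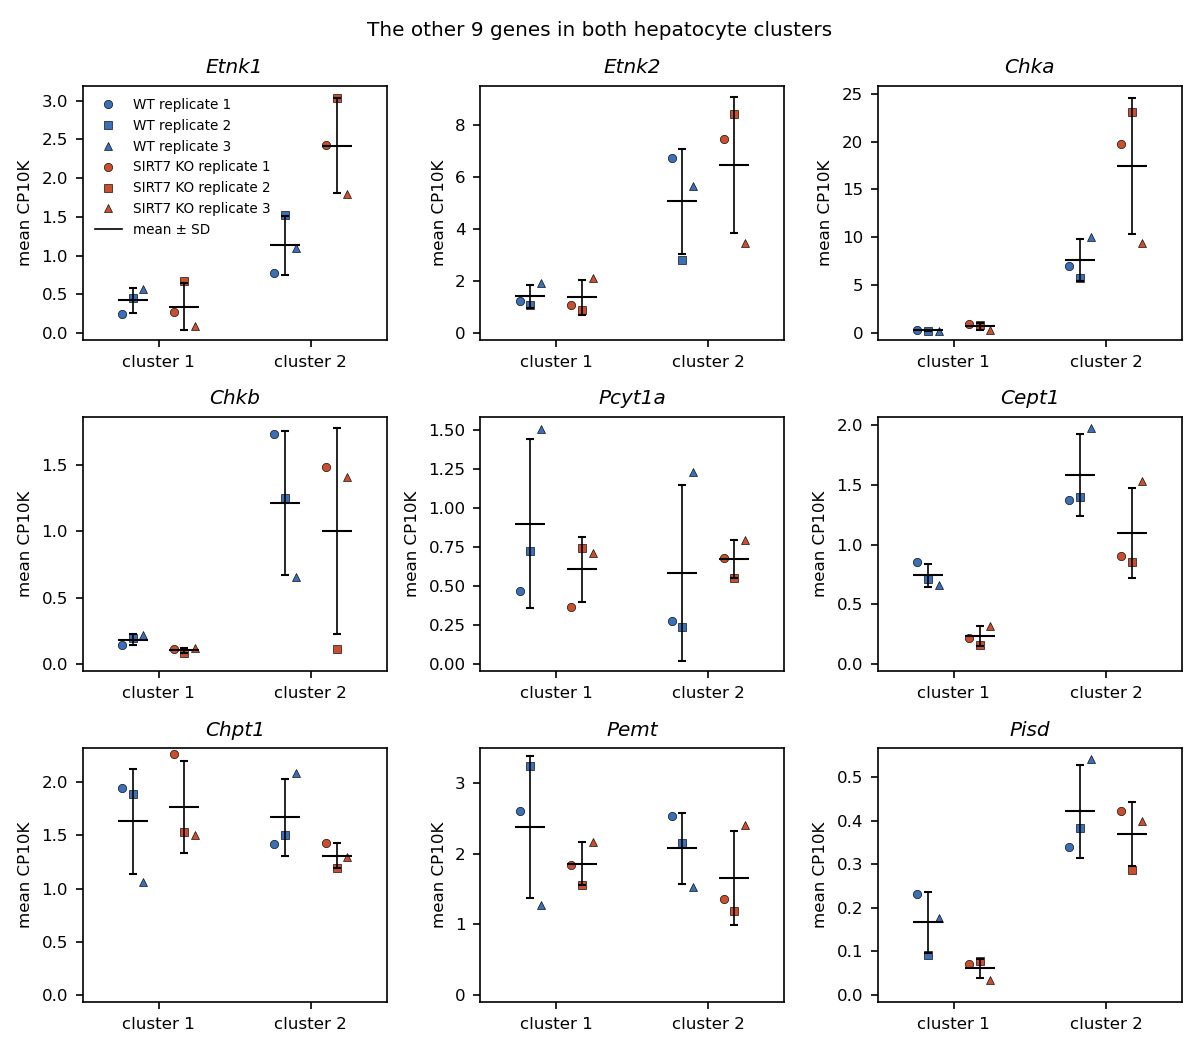
Levels of the 9 genes other than Pcyt2 in hepatocyte clusters 1 and 2 (mean CP10K per mouse, linear axes scaled per gene; bars are mean ± SD, n = 3 per genotype). The WT and SIRT7 KO points overlap in most panels, those of Chka in cluster 2 because KO replicate 3 lies among the WT mice. The Etnk1 points in cluster 2 and the Cept1, Chkb and Pisd points in cluster 1 do not overlap. How many of all genes lack overlap was not counted.

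Pcyt1a, on chromosome 16 from 32430921 to 32475070, carries out for choline the step that Pcyt2 carries out for ethanolamine. It had 0.470, 0.722 and 1.51 CP10K in WT and 0.367, 0.741 and 0.715 CP10K in KO mice in cluster 1, and 0.277, 0.234 and 1.23 CP10K against 0.679, 0.551 and 0.795 CP10K in cluster 2. In both clusters the KO mice lay within or close to the wide WT range (log2 differences -0.44 and 0.54, limma adjusted p = 0.733 and 0.756).

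Of the enzymes of the last step, Cept1, on chromosome 3 from 106502260 to 106547802, had the lowest adjusted p of the 9 genes. In cluster 1 it was at 0.852, 0.715 and 0.666 CP10K in WT and at 0.218, 0.157 and 0.321 CP10K in KO mice, so that the groups did not overlap. The means were 0.744 ± 0.0963 and 0.232 ± 0.0829 CP10K (SD, n = 3 each), on 6 to 66 UMIs per WT and 4 to 16 per KO mouse. The log2 difference of -1.53 ± 0.426 SE did not pass after adjustment (limma adjusted p = 0.136). With voom weights on summed UMIs it was -1.98 and passed (limma adjusted p = 0.00507), in a fit that called 517 genes. In cluster 2 Cept1 had 1.38, 1.40 and 1.98 CP10K against 0.905, 0.852 and 1.53 CP10K (log2 difference -0.54, limma adjusted p = 0.664), and in macrophage-like cells 2.81, 2.53 and 2.83 CP10K against 2.56, 2.89 and 2.03 CP10K, in both cases with overlap. Chpt1, the choline phosphotransferase, on chromosome 10 from 88452745 to 88504073, stayed within 1.07 to 2.26 CP10K in both clusters (log2 differences 0.13 and -0.32, limma adjusted p = 0.910 and 0.801).

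The genes of the other routes gave no call either. Pemt, on chromosome 11 from 59970614 to 60046489, had 2.62, 3.24 and 1.27 CP10K in WT and 1.85, 1.56 and 2.17 CP10K in KO mice in cluster 1, and 2.53, 2.16 and 1.54 CP10K against 1.37, 1.19 and 2.41 CP10K in cluster 2. The KO values lay within or just below the WT range (log2 differences -0.26 and -0.36, limma adjusted p = 0.797 and 0.792), and unlike Chka, Pemt had a cluster 2 level of only 0.667 to 1.21 times its cluster 1 level in the WT mice. Pisd, on chromosome 5 from 32736301 to 32785646, was at 0.231, 0.0911 and 0.177 CP10K in WT and 0.0709, 0.0769 and 0.0355 CP10K in KO mice in cluster 1, without overlap but on 1 to 15 UMIs per mouse. Its log2 difference of -0.93 ± 0.606 SE did not pass (limma adjusted p = 0.595), and in cluster 2 it was -0.16 (limma adjusted p = 0.924).

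Some marker genes moved with the genotype in the hepatocytes and their part in these values was not tested. The 14 hepatocyte markers summed to 333 to 581 CP10K in WT and 197 to 328 CP10K in KO mice in cluster 1, and to 335 to 524 and 163 to 328 CP10K in cluster 2. In cluster 2 the 8 neutrophil markers summed to 0.0320 to 0.128 CP10K in WT, where Retnlg, Mmp8 and Ly6g were at 0, and to 0.227 to 12.9 CP10K in KO mice, and the 7 plasma cell and 8 stellate cell markers were also higher there in each KO mouse. The 6 erythroid markers reached 104 CP10K in cluster 1 of WT replicate 1 and at most 6.27 CP10K in the cluster 1 cells of the other mice. Pcyt2 differed as much without WT replicate 1, at 0.919% of the WT level in cluster 1.

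Outside hepatocytes the genotypes mostly overlapped for the 9 genes, and not all levels were low. Cept1 averaged 2.72 CP10K in macrophage-like cells of the WT mice. Etnk1 averaged 1.05 CP10K in T/NK-like and 1.36 CP10K in endothelial-like cells of the WT mice. Unadjusted p-values under 0.05 were found for Etnk2 in dendritic-like, Pemt in T/NK-like, Chpt1 and Pemt in endothelial-like cells, all lower in the KO mice, and for Chka in plasma-like cells, higher there, and for none of the 9 genes in macrophage-like cells. Without SIRT7 KO replicate 1, which leaves 1 KO mouse in endothelial-like cells, the log2 difference of Pemt there was -3.67. Without WT replicate 3, which leaves 1 WT mouse in plasma-like cells, Chkb and Chka had log2 differences of -2.23 and 1.62 there. Whether the genotype difference was unlike in hepatocyte-like and macrophage-like cells was tested on the difference of both classes within each mouse. None of 8583 genes passed in limma (0%), though 622 had an unadjusted p under 0.05, and among the 9 genes Chka, with a difference of 1.70 ± 0.695 SE (limma adjusted p = 0.600), was the only one with an unadjusted p under 0.05.

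The wider pathway was described with 40 further genes, of which 37 were measured. None of these passed the threshold in the 218 tests over the 8 groupings. An unadjusted p under 0.05 was found in 24, 2 higher and 22 lower in the KO mice (11% of these tests, beside the 8.29% over all genes). limma with voom weights called 1, Dgat2 in cluster 1, lower in KO mice, in a fit that called 517 genes there. Of the 23 tests of the genes of the methyl donor cycle that supplies Pemt, 10 were at an unadjusted p under 0.05, all lower, but 9 of the 10 were outside hepatocytes, and the other was Mat1a in cluster 2. In those classes hepatocyte marker RNA was also present, in macrophage-like cells for example at a sum of 40.8 to 106 CP10K in WT and 8.62 to 53.3 CP10K in KO mice, with overlap, and its part in these values was not tested. Mat1a, which makes S-adenosylmethionine, had 49.2, 35.7 and 27.8 CP10K in WT and 19.1, 17.5 and 21.9 CP10K in KO mice in cluster 2, with every KO mouse below every WT mouse. Gnmt, which uses up S-adenosylmethionine, had 36.8, 26.4 and 19.2 CP10K against 16.9, 20.7 and 16.1 CP10K there, with overlap. Etnppl, which breaks down phosphoethanolamine, the substrate of Pcyt2, had the lowest adjusted p of the 37 genes. In cluster 1 it was at 1.14, 0.269 and 1.002 CP10K in WT and 0.168, 0.103 and 0.108 CP10K in KO mice, a log2 difference of -2.08 ± 0.526 SE (limma adjusted p = 0.0805). Without WT replicate 2 it was -2.69 and passed (limma adjusted p = 0.0291), while fits without 1 mouse called 20 to 151 genes in cluster 1. On the mean of the deposited values the difference was -0.24 (limma adjusted p = 0.2435). That mean is of logs of single cells with 1 added, a scale on which low genes differ less. Its size can therefore not be set beside -2.08. In cluster 2 the genotypes overlapped and Etnppl differed in the other direction, with 4.85, 1.27 and 1.34 CP10K in WT and 9.45, 1.45 and 2.70 CP10K in KO mice (log2 difference 0.71, limma adjusted p = 0.7875), and over all hepatocyte-like cells the log2 difference was 0.40 (limma adjusted p = 0.9605). Selenoi, which like Cept1 completes phosphatidylethanolamine, had 0.400, 0.579 and 0.369 CP10K in WT and 0.121, 0.145 and 0.283 CP10K in KO mice in cluster 1, and overlapped in cluster 2 at 1.21 to 4.01 CP10K. Of the genes that supply or use diacylglycerol, Dgat2 had 2.36, 2.90 and 1.52 CP10K against 0.666, 0.571 and 1.47 CP10K in cluster 1. Lpin2 lay higher in each KO mouse over all hepatocyte-like cells, at 2.25, 1.28 and 2.05 CP10K in WT and 2.93, 2.85 and 3.72 CP10K in KO mice (log2 difference 0.78 ± 0.397 SE, limma adjusted p = 0.7147), but overlapped within each cluster. Agpat2 and the acyl chain genes Lpgat1 and Lpcat3 overlapped between the genotypes in cluster 1, as did Gpcpd1, which breaks down glycerophosphocholine. Lpcat1 and Ahcy, next in level in their groups, were at 0 to 0.0215 and 0.133 to 0.45 CP10K over all hepatocyte-like cells of the 6 mice.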

How the data were processed

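Single-cell RNA sequencing (10x Genomics, 3' ends) was done on 3 WT and 3 SIRT7 KO livers. According to the study's methods and the submitters' notes, reads were aligned to mm10 with Cell Ranger 6.0.0, cells with under 500 genes or over 5% mitochondrial genes were removed, and genes in fewer than 3 cells were excluded. The values deposited by the authors are the natural log of CP10K + 1. Whole UMIs were recovered for all 12961041 values above 0 within 0.02, and 44 genes were detected in under 3 cells.

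The 10 genes and all other lists were chosen with earlier results of these data known. The genes named are the 10, Sirt7, the nearest genes, the 3 wider pathway genes of highest level in hepatocyte-like cells per group, and the 5 genes most like Pcyt2.

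With scanpy 1.11.5, 1000 variable genes, 50 components and 3 neighbours per mouse were used, and leidenalg 0.10.2 at resolution 0.35. Clusters were named by the highest marker score with 3 or more markers detected. Scrublet marked 46 cells (0.396%), too few to have worked, so doublets were kept and an alternative left out the 5% of cells per mouse with the highest scores. A mouse entered a class with 20 cells and a class was compared with 2 mice per genotype, which B-like, neutrophil-like and stellate-like cells did not reach. In endothelial-like cells SIRT7 KO replicate 3, and in plasma-like cells WT replicate 1 and SIRT7 KO replicate 3, were left out.

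limma 3.58.1 (R 4.3.3; trend and robust, two-sided) was run on log2(mean CP10K + 0.05) of genes averaging 0.05 CP10K or more, so fold changes of low genes are understated. The difference between classes was fitted robustly without trend. The steps were tested on data simulated with an assumed spread between mice, for both hepatocyte clusters and for macrophage-like and endothelial-like cells. They recovered 14% to 31% of genes changed 2-fold and 77% to 97% of genes changed 4-fold, so most 2-fold changes were missed. The p-values set the genotype difference against the spread between mice, with the variance of each gene drawn toward that of other genes. Alternatives were another pseudocount, filter, summary, resolution, variance model and scaling, a replicate block and leaving out each mouse. The paper's own test, which takes cells as replicates, was not used here. Positions come from GENCODE vM21 on GRCm38, the build mm10.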

Additional observations from a re-analysis of the deposited data

How the results depend on the processing

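Apart from fits that leave 1 mouse in a genotype, the counts of calls among the 9 genes stayed at 0 except in both hepatocyte clusters. Summed UMIs with voom weights gave 1 in hepatocyte cluster 1 (Cept1), in a fit that called 517 genes. Leaving out 1 mouse gave 0 to 1 in hepatocyte cluster 2 (Chka without SIRT7 KO replicate 3, log2 difference 1.53, with 176 genes called in that fit). In endothelial-like and plasma-like cells, fits without 1 mouse can leave 1 mouse in a genotype, assumed to vary like the others. For the 9 genes in such fits only the sizes of the differences are given. Pcyt2 in SIRT7 KO mice as a percent of WT moved beyond the spread of the mice with summed UMIs, from 6.21% to 8.49% in macrophage-like and from 4.74% to 7.22% in T/NK-like cells. Leaving out each mouse gave 5.04% to 7.77% in macrophage-like, 2.69% to 9.24% in dendritic-like and 2.96% to 24.5% in plasma-like cells, the last over a range set by SIRT7 KO replicates 1 and 2. It gave 0.434% to 1.504% in cluster 1, at the extremes without SIRT7 KO replicates 2 and 3. The doublet score and quantile alternatives were chosen after seeing the data. Of 401 alternative values of single genes, 384 kept direction and call, 3 newly passed and 14 reversed. The largest reversed value was that of Chkb in cluster 2, which went from -0.73 to 0.34 in a fit without 1 mouse. With voom weights, Etnk1 was at 0.046 and Chpt1 at -0.087 in cluster 1 and Pisd at 0.054 in cluster 2. With the mean of the deposited values, on their own scale, Etnk2 was at 0.029 in cluster 1. Leaving out each mouse gave, in cluster 1, -1.13 to 0.071 for Etnk1, -0.46 to 0.14 for Etnk2, -0.64 to 0.013 for Pemt and -0.14 to 0.28 for Chpt1, and in cluster 2 -0.032 to 0.73 for Etnk2, -1.29 to 0.34 for Chkb and -0.29 to 0.015 for Pisd. The cause was not tested.

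The labels do not say whether WT and KO mice of the same replicate number were paired. Deviations from the genotype means correlated at -0.144 to 0.14 between mice of the same number. With 3 mice per genotype, this cannot settle whether they were paired. With the replicate block, 0 of the 9 genes passed in each class and the direction of every single gene listed was kept, while the count of all genes called moved from 10 to 17 in hepatocyte-like cells, from 40 to 2 in cluster 1, from 25 to 64 in cluster 2, from 20 to 136 in macrophage-like, from 3 to 51 in dendritic-like, from 12 to 4 in T/NK-like and from 33 to 100 in endothelial-like cells. In plasma-like cells no block could be fitted. Over all alternatives the count ranged from 0 to 28 in hepatocyte-like cells, from 2 to 517 in cluster 1, from 1 to 176 in cluster 2, from 1 to 136 in macrophage-like, from 0 to 135 in dendritic-like, from 4 to 137 in T/NK-like, from 0 to 275 in endothelial-like and from 1 to 811 in plasma-like cells. For the difference between hepatocyte-like and macrophage-like cells, 1 gene passed without WT replicate 1 and 0 otherwise. At resolution 0.7 the hepatocyte clusters, matched by their shared cells, held 1756 of the 1763 and 1192 of the 1193 cells, and none of the 9 genes passed in them. The dendritic-like cluster held 188 cells there, with 20 or more in 2 mice, and was not compared. Levels near 0 rest on few UMIs, 5 to 37 of Pcyt2 per SIRT7 KO mouse in hepatocyte-like cells.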

Other observations

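The genes whose level was most like that of Pcyt2, over 39 means of mice in 8 cell classes and among 3263 genes averaging 0.5 CP10K or more, were Cyp2c50 (Pearson's r = 0.878), Cyp2c37 (0.861), Sult2a3 (0.824), Cyp2c69 (0.815) and Sult2a8 (0.809). The points share libraries and genotypes, so these are descriptions. The Cyp2c genes encode cytochromes P450 and the Sult2a genes sulfotransferases, both of liver, and close copies within each family can share reads, so the split between members is uncertain. In hepatocyte-like cells Cyp2c50 had 4.11, 11.6 and 7.32 CP10K in the WT and 0.724, 0.337 and 0.491 CP10K in the SIRT7 KO mice. Sult2a3 had 3.49, 4.14 and 1.21 CP10K against 0.355, 0.835 and 0.151 CP10K. The WT mice lay above the KO mice for both genes. Both were picked by likeness to Pcyt2, itself lower in the KO mice, so this is no separate finding. Among the other pathway genes r with Pcyt2 was highest for Pemt (0.565) and Chpt1 (0.46) and lowest for Etnk1 (-0.107), and for Sirt7 it was 0.781.

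In classes with too few mice to compare, Pcyt2 was at 1.61 and 1.75 CP10K in B-like cells of WT replicates 1 and 3 and at 0 in 63 cells of SIRT7 KO replicate 1. In neutrophil-like cells it was at 0.851 CP10K in WT replicate 1 and at 0.0219 and 0.123 CP10K in SIRT7 KO replicates 1 and 2. The 39 stellate-like cells held 7 Pcyt2 UMIs, all in 4 of the 15 WT cells.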
